A study of Mus musculus with 3 samples.

Results

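The genes of the proteasome were followed in mouse 3T3-L1 adipocytes exposed to glucose oxidase. They were taken by symbol, as every gene named Psma, Psmb, Psmc, Psmd, Psme, Psmf or Psmg with a number, and a gene was used only if at least 1 probe set of the array was annotated to it alone. This gave 49 genes of the 18194 measured, read by 103 of the 45101 probe sets. Of them, 47 encode subunits, assembly factors, activators or an inhibitor of the proteasome. The other 2 match by name only. Psmc3ip encodes a meiotic recombination factor first found as a partner of a proteasome ATPase, and Psme3ip1 encodes a partner of the activator PSME3.

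3T3-L1 is an established clonal mouse line whose fibroblast-like preadipocytes turn into fat cells in culture, and glucose oxidase generates hydrogen peroxide from the glucose of the medium. The study used the enzyme as a known oxidant treatment beside its own drug model of oxidative stress, and its labels describe the cells as insulin resistant. There was 1 group of 3 samples, each treated with glucose oxidase for 2 h, and no source used here says that these were separate cultures, so their spread may be technical. No control array was analysed here, so every value is a level after treatment, with no fold change and no test of the treatment.

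One label field calls the tissue preadipocytes, while the growth protocol and the study's methods describe differentiated adipocytes. Of 13 measured adipocyte markers 12 were above background, beside 55.7% of all genes. Among them were Adipoq (adiponectin) at 14.49 ± 0.03 and Fabp4 (a fatty acid carrier) at 14.49 ± 0.02 on the log2 intensity scale (SD, n = 3). The exception was the leptin gene Lep, at 5.79 ± 0.04 (SD, n = 3). Of 10 preadipocyte and fibroblast markers 9 were also above background, all except Cd34 at 5.49 ± 0.08 (SD, n = 3). The preadipocyte gene Dlk1, named after its value was seen, was at 13.24 ± 0.10 (SD, n = 3). In RNA from whole cultures, fewer cells of a type and less RNA per cell cannot be told apart.

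The proteasome is the protease that degrades most short-lived and damaged proteins of the cell, usually after they have been tagged with ubiquitin. Its 20S core is a barrel of stacked rings, in which outer rings of alpha subunits gate the entrance and inner rings of beta subunits hold the catalytic sites, while the 19S cap recognises, unfolds and feeds in the substrate. Under inflammatory signals the catalytic subunits can be replaced by those of the immunoproteasome, which favours peptides for antigen presentation, and both the 20S core and the immunoproteasome are known for degrading oxidised proteins.

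Intensities were deposited on a linear scale and log2 was taken of them. The level of a gene is that of its brightest probe set. Background was a log2 intensity of 7.50, exceeded by only the top 5% of the 83 probe sets for smell, pheromone and bitter taste receptors, and a gene counted as above it where at least 1 probe set passed in all 3 arrays. By this rule 47 of the 49 genes taken by symbol were above background, beside 55.7% of all genes. Both name-only genes, Psmc3ip and Psme3ip1, were among these 47, and they are included wherever proteasome genes are counted below. The levels of these 47 ran from 8.82 for the assembly chaperone gene Psmd9 to 12.99 for the catalytic subunit gene Psmb7. Probe sets differ in how well they bind, so levels of different genes cannot be set against each other and the proportions of subunits cannot be read from them.

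The 2 genes that were not above background belong to proteasomes of other tissues. Psma8, the alpha subunit of the testis proteasome, was at log2 intensities of 5.46, 5.30 and 5.28 in replicates 1, 2 and 3. Psmb11, the catalytic subunit of the thymus proteasome, was at 6.22, 6.08 and 5.91 in the same order. Each was below background in all 3 arrays, and each is read by 1 probe set.

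**Figure D1:**
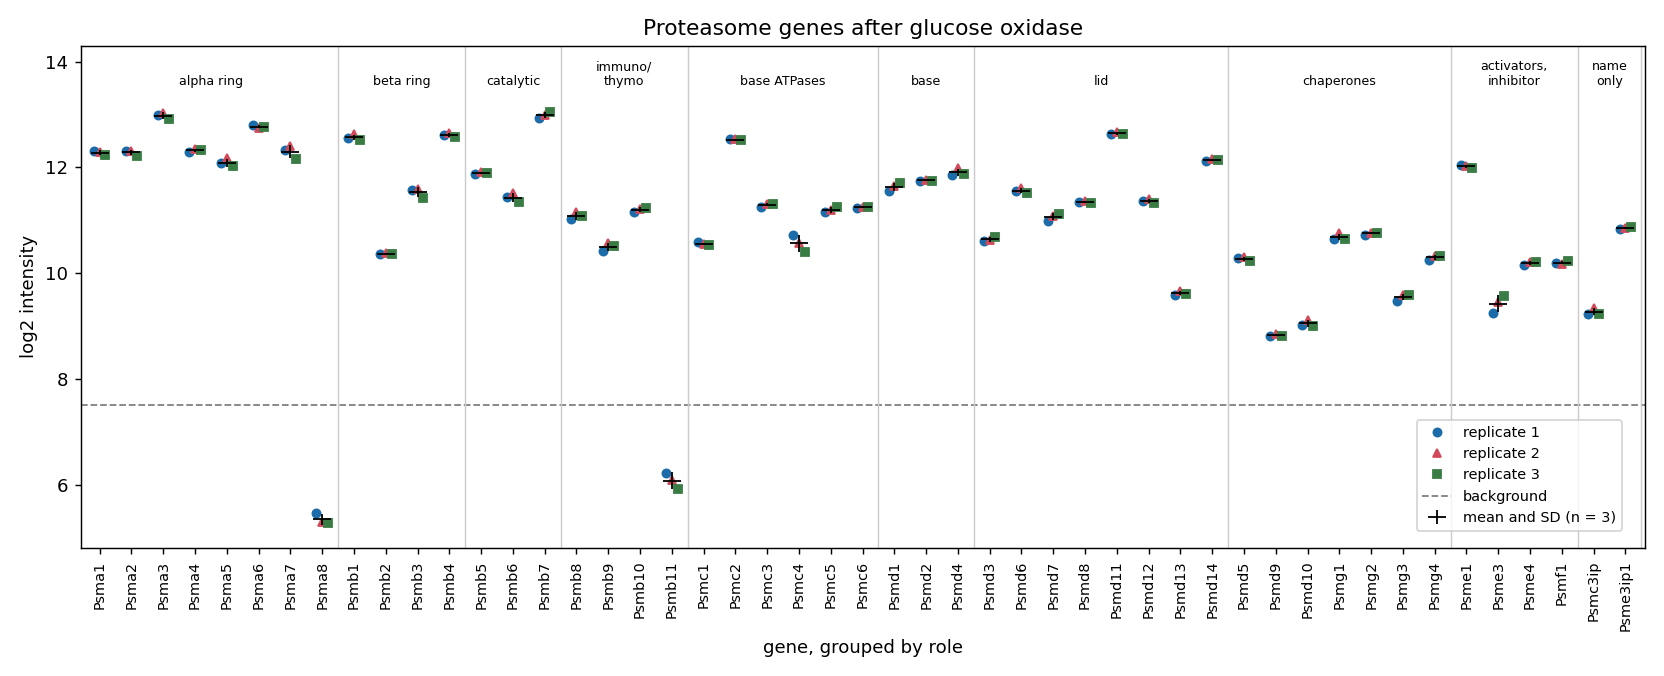
Log2 intensity (y axis) of the 49 proteasome genes (x axis), grouped by role, in 3 samples of adipocytes treated with glucose oxidase. Symbols are single arrays, bars are the mean and SD (n = 3), and the dashed line is background at 7.50. The 3 arrays lie close together for most genes, and Psma8 and Psmb11 are the 2 genes under the line. Heights can be compared between arrays but not between genes.

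The constitutive catalytic subunits were all above background. Psmb5, the chymotrypsin-like subunit and the main target of proteasome inhibitors, was at log2 intensities of 11.87, 11.91 and 11.90 in replicates 1, 2 and 3 (SD 0.02). Psmb6, the caspase-like subunit, was at 11.44, 11.51 and 11.34 (SD 0.08), with replicate 3 the lowest. Psmb7, the trypsin-like subunit, was at 12.94, 13.00 and 13.04 (SD 0.05), with replicate 1 the lowest. Psmb6 and Psmb7 thus did not follow the same order over the arrays.

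Oxidant stress is known to act on proteasome genes through NRF1 and NRF2, factors encoded by Nfe2l1 and Nfe2l2 that bind the antioxidant response element. Nfe2l1 was at log2 intensities of 10.43, 10.50 and 10.53 in replicates 1, 2 and 3, and Nfe2l2 was at 11.53, 11.59 and 11.53. All 10 measured regulators of proteasome genes were above background, beside 55.7% of all genes, and 9 were with the median of probe sets. The element was searched as TGACNNNGC on both strands of RefSeq promoter windows of the GRCm38.p6 assembly, which run from 250 bases before to 50 bases after a start site. It was found in 6 of the 44 windows that the 41 matched proteasome genes had (13.6%), against 12.4% of all 32851 windows. Windows of the genes Psma8, Psmb1, Psmb2, Psmb7, Psmc3, Psmd3, Psmd7 and Psmg2 were not analysed here.

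Both constitutive catalytic genes with a window held the element, and they are shown here because no other role group with a window had it in every gene. Capitals mark the match. The Psmb5 stretch lies at chr14:54618024-54618053 on the minus strand and the match starts at base -47 from the start site. The Psmb6 stretch lies at chr11:70525337-70525366 on the plus strand, with the match at base -9.
Psmb5: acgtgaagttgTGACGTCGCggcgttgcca
Psmb6: actaaagagagTGACGGAGCgctttacgac
The other 4 matches were in Psmc6 (an ATPase of the 19S base), Psmd12 (lid), Psmd9 (assembly chaperone) and Psme4 (activator). The Psmd9 stretch, at chr5:123228148-123228177 on the plus strand, and the Psme4 stretch, at chr11:30771757-30771786 on the plus strand, are given for comparison, and the Psme4 match reads on the other strand.
Psmd9: tatctagccggTGACCCCGCccacttccaa
Psme4: gcgctgcggctGCAGCGTCAccagaagagc
A match describes these letters only, and binding of a factor was not measured.

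The 3 immunoproteasome subunits were above background in all arrays, whereas Psmb11 was not. Psmb8, the chymotrypsin-like subunit that takes the place of Psmb5, was at log2 intensities of 11.02, 11.15 and 11.08 in replicates 1, 2 and 3 (SD 0.07). Psmb9, which takes the place of Psmb6, was at 10.41, 10.57 and 10.51 (SD 0.08). Psmb10, which takes the place of Psmb7, was at 11.15, 11.22 and 11.23 (SD 0.04). All 3 genes were lowest in replicate 1, as were 44.3% of all genes above background. These Psmb8 values are of its brighter probe set. Its second one, which can bind other transcripts, was below background in each array, at 7.28, 7.19 and 7.10. The median of the 2 probe sets, 9.14, is their midpoint and not a separate reading.

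Interferon gamma, made by immune cells, is a known inducer of these subunits, so leukocyte markers were counted beside them. 3T3-L1 is a clonal line, so a leukocyte marker above background is not taken as a sign of immune cells. Of 16 measured leukocyte markers 7 were above background, beside 55.7% of all genes. They were Cd3e at 8.27, Cd4 at 7.75, Cd8a at 7.62, Csf1r at 8.70, Lyz2 at 11.19, Cd14 at 8.83 and Cd74 at 8.14 (mean log2 intensity, n = 3). Cd4 and Cd8a lay close to the background of 7.50, and with the 99th percentile (8.05) as background 4 of the markers passed. Ptprc, the gene of the pan-leukocyte surface protein CD45, was at 4.79, 4.49 and 4.63 in replicates 1, 2 and 3, below background in each array. Of the macrophage genes, Itgam, Adgre1 and Cd68 were also not above background, at 5.60 ± 0.04, 6.67 ± 0.08 and 6.56 ± 0.05 (SD, n = 3). Csf1r, Lyz2 and Cd14, which macrophages also express, were above it. The intensities of the 16 markers summed to 5212.33, 4914.71 and 4939.24 in replicates 1, 2 and 3. Of the 7 above background 2 were highest in replicate 1, 2 in replicate 2 and 3 in replicate 3.

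Psmb8 and Psmb9 lie on mouse chromosome 17 in the order Psmb9, Tap1, Psmb8, Tap2, beside the genes of the transporter that carries their peptide products into the endoplasmic reticulum. Tap1 was at log2 intensities of 10.73, 10.74 and 10.73 in replicates 1, 2 and 3. Tap2 was at 9.93, 10.09 and 10.16 (SD 0.12), lowest in replicate 1 like Psmb8 and Psmb9, as were 44.3% of all genes above background. Tap1 was also lowest there, but its arrays differed by less than 0.02. All 10 measured antigen processing genes were above background, beside 55.7% of all genes. B2m, the light chain of class I molecules, was at 14.49, 14.45 and 14.44. Of 8 interferon pathway genes 7 were above background, beside the same 55.7%. Irf1, a transcription factor known to drive immunoproteasome genes, was at 11.77, 11.77 and 11.80, and Nlrc5, a class I activator, was at 9.12, 9.03 and 9.03. Ciita, the activator of class II genes, was not above background, at 6.64, 6.64 and 6.52.

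**Figure D2:**
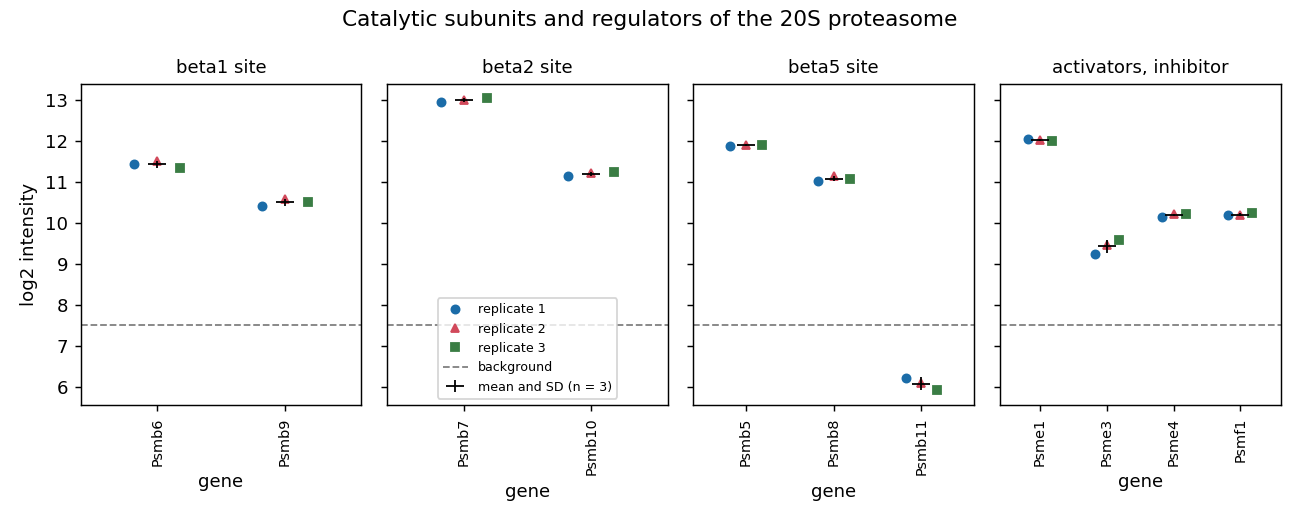
Log2 intensity (y axis) of the catalytic subunits, in panels by the active site they fill, and of the activators and inhibitor (x axis), after glucose oxidase. Symbols are single arrays, bars the mean and SD (n = 3), and the dashed line background at 7.50. Each site has its constitutive and its immunoproteasome gene above the line, and Psmb11 is below it.

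**Figure D3:**
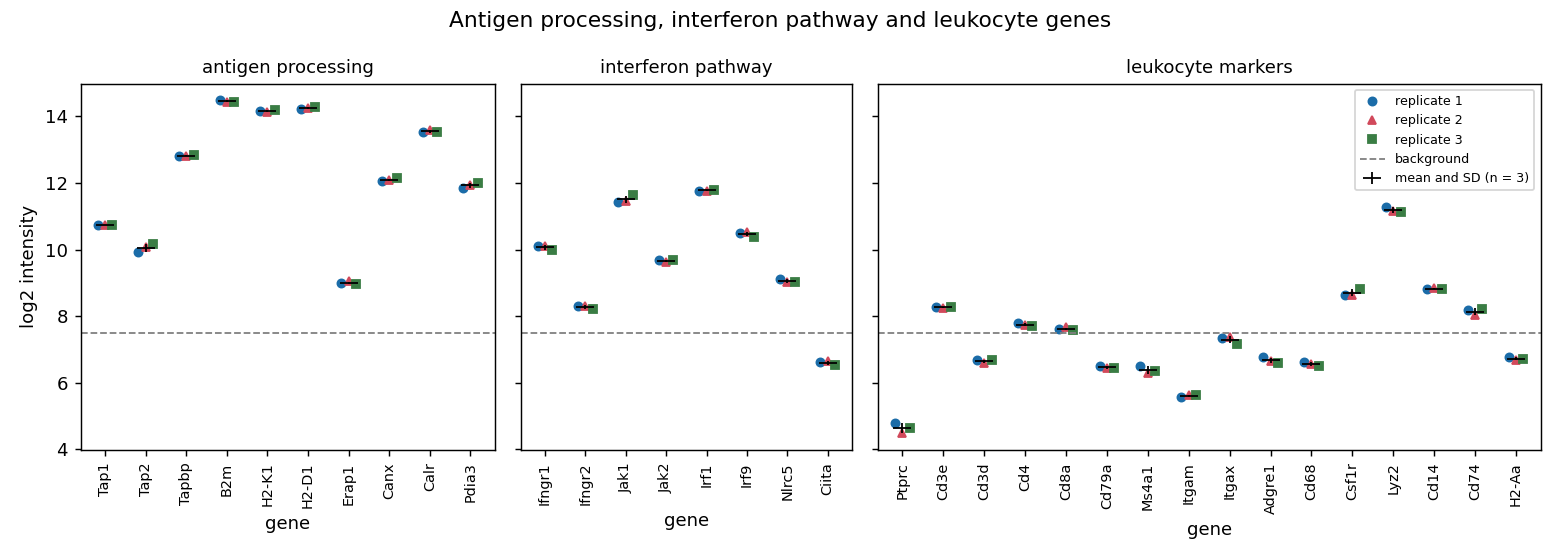
Log2 intensity (y axis) of antigen processing, interferon pathway and leukocyte genes (x axis) in the same 3 samples, with single arrays as symbols, the mean and SD (n = 3) as bars and background as a dashed line at 7.50. Above the line are all 10 antigen processing genes, 7 of 8 interferon pathway genes and 7 of 16 leukocyte markers. Over all genes the share above it is 55.7%.

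The gamma-activated site TTCNNNGAA, an element of interferon gamma responses, was found in 3 of the 44 proteasome windows (6.82%), against 8.30% of all windows. Psmb8 held it and the windows of Psmb9, Psmb10 and Psmb11 did not, and the other 2 were those of the 19S scaffold gene Psmd2 and the chaperone gene Psmg1. The Psmb8 stretch is printed because this was the only immunoproteasome gene with a match. It lies at chr17:34198087-34198116 on the plus strand, with the match at base -97.
Psmb8: gtcctccgctgTTCCCAGAAgatgcccccc

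The activators open the gate of the core without the 19S cap. Psme1, a subunit of the interferon-inducible activator PA28, was at log2 intensities of 12.05, 12.02 and 11.99 in replicates 1, 2 and 3 (SD 0.03). Its partner Psme2 shares its probe set with Psme2b and so fell outside the rule, and that shared probe set was at 12.28, 12.33 and 12.32 (SD 0.03). Psme3, which forms the nuclear member of the same family, was at 9.25, 9.45 and 9.57 (SD 0.16). This was the largest SD among the 47 genes above background, and replicate 1 was the low array. Psme4, the large nuclear activator PA200, was at 10.15, 10.21 and 10.21 (SD 0.03), lowest in replicate 1, in a probe set that can bind other transcripts. Its second probe set, at 9.76, 9.70 and 9.69, was highest in replicate 1. Psmf1, an inhibitor of the core in vitro, was at 10.19, 10.18 and 10.23 (SD 0.03).

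The interferon-stimulated response element, searched on both strands as GAAA, any 2 bases and GAAA again, was in 5 of the 44 proteasome windows (11.4%), against 3.44% of all windows. The 5 were those of Psmb3, Psmd4, Psmd9, Psme1 and Psmg4, and none of them encodes an immunoproteasome catalytic subunit. The Psme1 stretch, at chr14:55578493-55578522 on the plus strand, has its match at base 9 after the start, and the Psmb3 stretch, at chr11:97703261-97703290 on the plus strand, has it at base -163. They are shown because one belongs to an interferon-inducible gene and the other to a structural core subunit. Both matches read on the other strand, so the capitals are the element reversed and complemented.
Psme1: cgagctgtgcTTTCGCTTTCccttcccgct
Psmb3: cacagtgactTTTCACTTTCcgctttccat

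Of the 8 alpha ring genes 7 were above background, at 12.09 to 12.98. Psma7 had the largest SD of them, at log2 intensities of 12.33, 12.41 and 12.17 in replicates 1, 2 and 3 (SD 0.12). Psma5 was at 12.08, 12.18 and 12.03 (SD 0.08), and Psma3 was at 12.99, 13.04 and 12.91 (SD 0.06). These 3 genes were highest in replicate 2 and lowest in replicate 3, as was Psma2, whereas Psma1 and Psma6 were highest in replicate 1 and Psma4 was lowest there. The second probe set of Psma5, at 11.97, 12.06 and 12.01, was lowest in replicate 1. Psma1, Psma2, Psma4 and Psma6 were at 12.28 ± 0.04, 12.28 ± 0.05, 12.32 ± 0.03 and 12.77 ± 0.03 (SD, n = 3). The CCAAT box, bound by the factor NF-Y, was in the windows of 5 of these 7 genes (Psma1, Psma2, Psma3, Psma6 and Psma7). Over all proteasome windows its share was 36.4%, against 37.4% of all windows. The GC box GGGCGG, bound by SP1, was in 23 of the 44 windows (52.3%), among them those of Psma1, Psma2, Psma4 and Psma7, against 35.7% of all windows. The motifs were counted separately, whether or not their letters overlapped.

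The 4 structural beta subunits, which hold no active site, were all above background. Psmb3 was at log2 intensities of 11.58, 11.60 and 11.43 in replicates 1, 2 and 3 (SD 0.09), Psmb1 at 12.56, 12.62 and 12.53 (SD 0.05) and Psmb4 at 12.61, 12.64 and 12.57 (SD 0.04). Psmb2 had the smallest SD of all 47 genes above background, 0.0064, at 10.37, 10.38 and 10.37. All 4 were highest in replicate 2, beside 35.5% of all genes above background, and lowest in replicate 3, beside 30.8%, though for Psmb2 the whole range was 0.012. The second probe set of Psmb4 was highest in replicate 1, at 12.49, 12.34 and 12.33.

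The 6 ATPases of the 19S base form the ring that unfolds substrates, and all were above background. Psmc4 was at log2 intensities of 10.72, 10.57 and 10.41 in replicates 1, 2 and 3 (SD 0.16), the second largest SD among the proteasome genes. Psmc5 was at 11.15, 11.19 and 11.25 (SD 0.05) and Psmc3 at 11.26, 11.32 and 11.31 (SD 0.03). Replicate 1 was the high array for Psmc4 in this probe set, but in its second probe set, at 10.33, 10.46 and 10.38, replicate 1 was the lowest, as it was for Psmc5 and Psmc3. Psmc2 was at 12.54, 12.53 and 12.52, with the second smallest SD, 0.011. Psmc1 and Psmc6 were at 10.56 ± 0.02 and 11.25 ± 0.02 (SD, n = 3).

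The other base subunits dock ubiquitin and its carriers. Psmd1, a scaffold subunit, was at 11.56, 11.65 and 11.70 in replicates 1, 2 and 3 (SD 0.07). Psmd4, a ubiquitin receptor, was at 11.86, 11.99 and 11.89 (SD 0.06), and the scaffold gene Psmd2 was at 11.75, 11.77 and 11.75 (SD 0.01), the third smallest SD. Replicate 1 was the lowest array for Psmd1 and Psmd4, and for Psmd2 the arrays lay within 0.023.

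All 8 lid genes were above background, at 9.62 to 12.65. Psmd7, the partner of the deubiquitinase subunit, was at 11.00, 11.07 and 11.13 in replicates 1, 2 and 3 (SD 0.06). Psmd6 was at 11.56, 11.61 and 11.51 (SD 0.05), and Psmd3 was at 10.60, 10.63 and 10.69 (SD 0.04). Psmd14, the deubiquitinase that removes the ubiquitin chain before the substrate enters, was at 12.14 ± 0.02 (SD, n = 3). Psmd8, Psmd11, Psmd12 and Psmd13 were at 11.34 ± 0.02, 12.65 ± 0.02, 11.36 ± 0.04 and 9.62 ± 0.04 (SD, n = 3). Each of the 8 lid genes was higher in replicate 2 than in replicate 1, beside 61.6% of all genes above background, but the second probe set of Psmd6 was lower there, at 11.60 in replicate 1 and 11.55 in replicate 2.

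The 7 chaperones that build the core and the base leave the finished particle, and all were above background. Psmd10, also known as gankyrin, was at 9.03, 9.12 and 9.00 in replicates 1, 2 and 3 (SD 0.06). Psmg3 was at 9.48, 9.58 and 9.60 (SD 0.06), and Psmg1 was at 10.65, 10.75 and 10.65 (SD 0.06). Psmg2 and Psmg4 were at 10.75 ± 0.02 and 10.30 ± 0.04, and Psmd5 and Psmd9 were at 10.27 ± 0.04 and 8.82 ± 0.02 (SD, n = 3). All 7 were higher in replicate 2 than in replicate 1, as were 61.6% of all genes above background. Pomp, which matures the core and lies outside the symbol rule, was at 12.09, 12.18 and 12.09. All 14 measured partners of the proteasome that lie outside the rule were above background, beside 55.7% of all genes. With the median of probe sets 10 of these partners were. Adrm1 was not analysed here. The name-only genes Psmc3ip and Psme3ip1 were at 9.27 ± 0.07 and 10.85 ± 0.02 (SD, n = 3).

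The spread between arrays was small. The median SD of the 47 genes above background was 0.043 on the log2 scale, beside 0.048 for all genes above background. Of the 47 genes, 20 had an SD over the all-gene median (42.6%), 8 over the upper quartile of 0.071 and 3 over the 90th percentile of 0.096. The 5 largest were those of Psme3, Psmc4, Psma7, Psmb3 and Psmb6. Spread was smaller for brighter genes. The median SD was 0.042 for genes over the median level and 0.056 for genes under it, and 43 of the 47 proteasome genes lay over it.

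Most of the genes were higher in replicate 2 than in the other arrays. Replicate 2 was higher than replicate 1 for 40 of the 47 genes, beside 61.6% of all genes, with a median difference of 0.04 on the log2 scale against 0.02 over all genes. Replicate 3 was higher than replicate 1 for 24 of the 47, beside 58.8% of all genes, with a median difference of 0.00030. Replicate 3 was higher than replicate 2 for 11 and lower for 36, beside 50.9% of all genes higher, with a median difference of -0.03 against 0.0017 over all genes. These are counts over genes of the same 3 arrays, so they describe the arrays and not a treatment.

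In a count chosen after the values were seen, 31 of the 47 genes were highest in replicate 2, beside 35.5% of all genes. In their brightest probe sets 2 were lowest there, Psma6 and Psmf1. The second probe set of Psma6 was lowest in replicate 3, at 12.68, 12.64 and 12.59 in replicates 1, 2 and 3. That of Psmf1 was lowest in replicate 1, at 9.59, 9.71 and 9.72. The constitutive core genes were also counted after their values were seen. Of their 14 genes above background 12 were lower in replicate 3 than in replicate 2, with a median difference of -0.085. The exceptions were Psma6 and Psmb7. Of the 17 genes of the 19S cap 13 were lower in replicate 3 than in replicate 2, with a median of -0.02. Of the 7 chaperones 6 were lower in the same comparison, with a median of -0.02. Among all genes above background 4971 of 10136 were lower, with a median of 0.0017. Whether these groups differ was not tested.

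**Figure D4:**
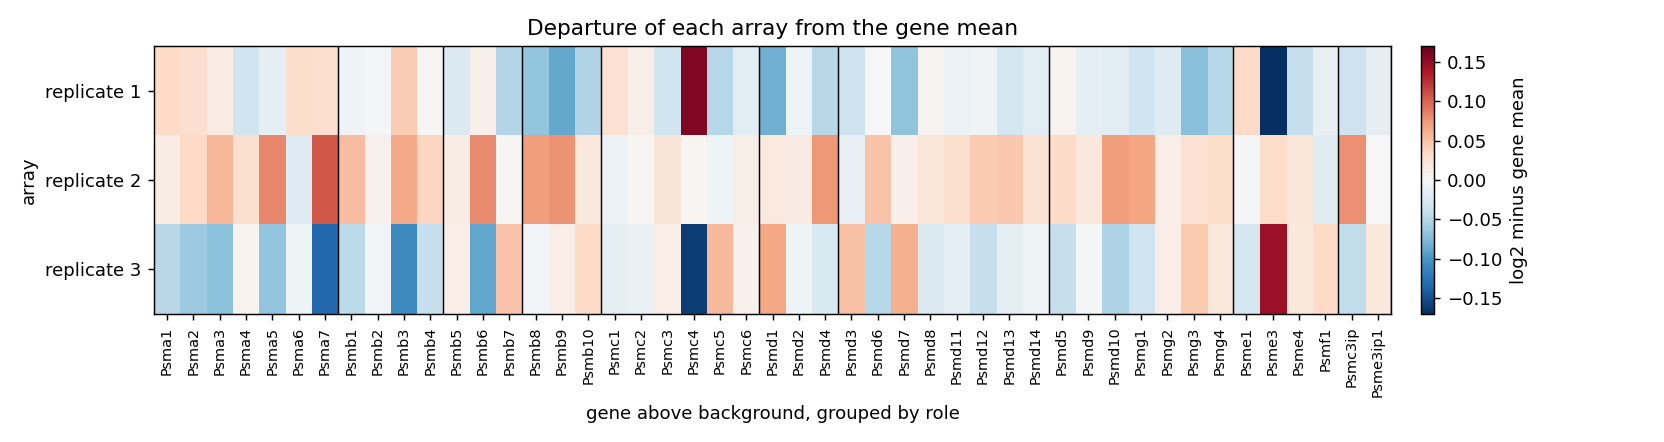
Log2 intensity of each array (y axis) minus the mean of the 3 arrays, for the 47 proteasome genes above background (x axis), in blocks by role in the same order as the plot of levels. Red is above and blue below the gene mean. The row of replicate 2 is mostly red, with 31 genes at their highest there, and the core genes on the left are mostly blue in replicate 3.

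Other measures also differed between the arrays, and their part in these differences was not tested. The intensities of the proteasome genes summed to 143822, 147744 and 142663 in replicates 1, 2 and 3. Those of the 10 preadipocyte and fibroblast markers summed to 69163.5, 65365.8 and 67958.3, and 8 of the 9 that were above background were lowest in replicate 2, as were 24.9% of all genes. The 13 adipocyte markers summed to 143709, 143050 and 142576, and of the 12 above background 5 were highest in replicate 1, 3 in replicate 2 and 4 in replicate 3. RNA quality was read from control probe sets at the ends of a transcript, where the 3′ signal divided by the 5′ signal gave 1.70, 1.58 and 1.54 with actin. The same ratio of Gapdh stood at 1.11, 1.14 and 1.10. Of the 10 regulators 9 were higher in replicate 2 than in replicate 1, beside 61.6% of all genes above background. All 10 were higher in replicate 3 than in replicate 1, beside 58.8% of all genes. Replicate 3 was higher than replicate 2 for 6 of them, beside 50.9% of all genes.

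A second probe set of the same gene gives another reading of the same RNA. It was above background for 20 of the proteasome genes. The change from replicate 2 to replicate 3 had the same sign in both probe sets for 15 of the 20 (75%), beside 59.8% of the 4003 genes with such a second probe set. For Psma7 it was -0.24 in the brighter and -0.12 in the second probe set, and for Psmb3 it was -0.17 and -0.15. For Psmb1 it was -0.099 and -0.15. Opposite signs were seen for Psma1, Psma6, Psmc3ip, Psmd7 and Psme3. From replicate 1 to 2 the sign was shared by 14 of 20 (70%, all genes 60.5%) and from replicate 1 to 3 by 13 of 20 (65%, all genes 62.2%).

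The 2 genes of largest spread were not matched by their second probe sets. The change of Psme3 from replicate 1 to 3 was 0.32 in the brighter probe set and 0.06 in the second. That of Psmc4 was -0.32 in the brighter probe set and 0.04 in the second.

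**Figure D5:**
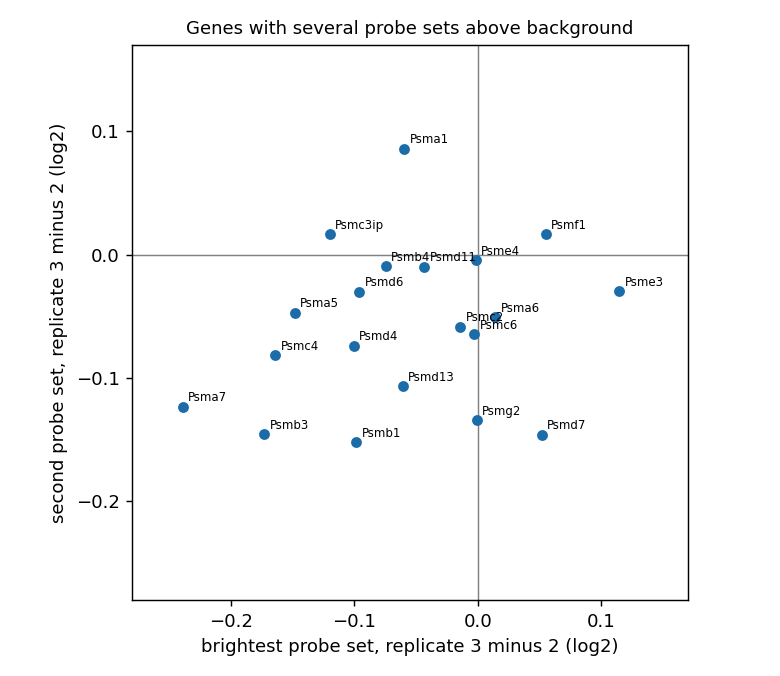
Log2 difference of replicate 3 minus replicate 2 in the brightest probe set (x axis) and in the second brightest (y axis), with 1 point for each of the 20 proteasome genes whose second probe set was above background. Of the 20 points 15 have the same sign on both axes, most of them in the lower left, where Psma7, Psmb3 and Psmb1 lie.

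The probe sets of a gene did not always give the same level. Of the 103 probe sets 75 were above background and 28 were not. A single probe set read 22 of the genes, 8 had several that were all above background, and 19 had several of which some were not. Psmd11 had the most, 8, and its level of 12.65 comes from a probe set that can bind other transcripts, as do those of Psma6, Psmc2 and Psme4. When the median over all probe sets of a gene was taken in place of the brightest, 41 of the 49 genes were above background. The 6 genes lost were then at 7.12 for Psma1, 7.22 for Psmc1, 7.23 for Psmd9, 7.04 for Psme4, 7.36 for Psmg3 and 7.31 for Psmg4.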

How the data were processed

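The deposited values are probe set intensities of 3 mouse4302 Affymetrix arrays, which per the methods the authors background-corrected and normalized by RMA in affyPLM (version not given in the sources used here). The scale was linear, with array medians of 127.6, 126.9 and 126.9, and log2 was computed from it. Any later scaling, and the arrays normalized together, are not given there. Of 45101 probe sets, 34958 named 1 gene, 932 several and 9211 none in the platform annotation, and all 103 used matched RefSeq GRCm38.p6 by Entrez identifier. The number of arrays limits the precision.

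With 1 group, no test was run. Counts and medians were set beside those over all genes. Proteasome genes, role groups, lists and the naming rule were chosen with earlier results of these data known. Array values were given for catalytic subunits, activators, the inhibitor, genes not above background, the 5 largest and 3 smallest SDs, and up to 3 genes of largest SD in other groups. Alternatives were the background level and genes, the probe set of a gene, cross-hybridising probe sets, no filter, centring, and leaving out arrays. The procedure was tested on simulated data. Python 3.11.15, pandas 2.3.3, numpy 2.4.6 and matplotlib 3.10.9 were used.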

Additional observations from a re-analysis of the deposited data

How the results depend on the processing

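No paired analysis was possible because there was a single group of arrays. The count of 47 proteasome genes above background was the same with the 99th or the 90th percentile (8.05 or 7.33) as background, with keratin-associated protein and defensin probe sets (7.91), without cross-hybridising probe sets, on centring and without any 1 of the arrays, and was 41 with the median of probe sets. That setting also gave 4 assembly chaperones in place of 7, since each count then rests on the gene's dimmer probe sets too. With the 99th percentile 4 leukocyte markers were above background in place of 7. The median SD of 0.043 was 0.048 on centring and ranged from 0.033 to 0.039 when each array was left out. Without an array each SD rests on fewer values, so those medians are not like for like with 0.043. The cause of the changes was not tested. Genes highest in replicate 2 numbered 28 to 32 over the alternatives. Core genes lower in replicate 3 than in replicate 2 numbered 11 to 13. Genes higher in replicate 2 than in replicate 1 numbered 36 to 42. The lowest of each, 28, 11 and 36, came with the median of probe sets, where 41 genes in place of 47 were above background. The number of genes counted thus differed between settings. The median difference of replicate 3 and replicate 1, 0.00030, was -0.00020 with no filter on dim genes, so it has no settled sign. With the median of probe sets 17 of the 49 levels moved by more than 1.5-fold, and without cross-hybridising probe sets 1 did, that of Psmd11 to 11.43. With no filter there is no count above background to give, and a pair of arrays has no value without 1 of its arrays.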
